A study of Rattus norvegicus with 12 samples.

Results

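The genes that encode matrix metalloproteinases, ADAMTS proteases and their tissue inhibitors were followed across rat joints labelled sham, model and treatment. They were chosen by name: every gene whose symbol is Mmp with a number, Adamts with a number or Timp1 to Timp4. That gave 45 of the 23144 genes listed by the authors, of which 22 are Mmp, 19 are Adamts and 4 are Timp genes. The series' title concerns knee osteoarthritis and a form of acupuncture around the knee. Total RNA of 12 joint libraries was sequenced, with 4 libraries in each group. The labels state neither how the model was made, nor what sham and treatment libraries received, nor the strain, sex, age or time. They also do not say that the 4 libraries of a group come from separate animals, so a p-value reflects only how these samples vary, and that variation may be technical.

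Matrix metalloproteinases (MMPs) are zinc proteases that cut collagens, elastin and other proteins of the extracellular matrix, and most are secreted as inactive proenzymes. ADAMTS proteases, relatives with thrombospondin repeats, include the aggrecanases that cut the cartilage proteoglycan aggrecan, the enzymes that trim procollagen before it forms fibrils, and ADAMTS13, which cuts von Willebrand factor. The tissue inhibitors of metalloproteinases (TIMPs) block the active site of these enzymes. In a joint the sources differ: neutrophils carry MMP8, MMP9 and MMP25, macrophages make MMP12, osteoclasts make MMP9, and fibroblasts and chondrocytes make MMP2, MMP3, MMP13, MMP14 and most ADAMTS proteases.

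Libraries held 15513116 to 17218430 reads assigned to genes. Values per library are given below as CPM, the reads of a gene scaled to this total. Unless stated otherwise, levels are compared between genes as CPM per kilobase of gene length. Ratios of reads between genes are not scaled to length, so they serve to compare libraries and not the levels of the genes. The libraries differed in cell type markers, and the labels do not say whether joints were dissected alike in all groups. The summed level of 10 neutrophil markers was 13303 to 22362 CPM in sham, 3648 to 13349.7 CPM in model and 7.16 to 191 CPM in treatment. That of 5 erythroid markers was 33791 to 54471, 43781 to 68474 and 316 to 4206 CPM in the same order. Fibroblast markers (8 of 8 listed) summed to 5668 to 15402, 10960.0 to 22013 and 25459 to 65532 CPM in the same order. Skeletal muscle markers were high in sham 2, sham 4 and treatment 2 (25306, 22886 and 35167 CPM), and results are also given without these 3 libraries where that matters. These markers were also at 6390 CPM in sham 1, 1172 CPM in sham 3 and 2618 CPM in treatment 4, against 51.1 to 615 CPM in model. Leaving out the 3 libraries therefore does not make the groups alike in muscle. The cartilage markers Col2a1 and Acan were above 0 in every library. In such bulk samples, fewer cells of a type and less RNA per cell cannot be told apart.

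Differences were largest between treatment and sham. Each comparison was tested with limma across all genes on log2(value + 1), and a gene is called here at a Benjamini-Hochberg adjusted p under 0.05. In model against sham, 0 of the 44 members tested were called, with a background of 0% of 20205 genes. At an unadjusted p under 0.05 there were 10 members, where 13% of all genes had such a p. edgeR called 0 members, and DESeq2 called 2, Mmp12 and Mmp3, with a background of 3.4% of genes. The median log2 fold change was 0.62 over members and 0.03 over all genes tested. The groups did not overlap for 1 member, Mmp12, which was higher in all model libraries, against 3.08% of all genes that were higher without overlap.

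In treatment against model, 11 of the 42 members tested were called, 7 higher and 4 lower, against a background of 14.1% of 20328 genes (3.6% higher and 10.5% lower). The members' median was 0.79 and that of all genes 0.02. Higher were Mmp2, Mmp11, Mmp14, Mmp16, Timp1, Timp2 and Adamts2, and lower were Mmp8, Mmp25, Adamts3 and Adamts9. In treatment against sham, 29 of 43 were called, 24 higher and 5 lower, against a background of 36.8% of 20352 genes (17.3% higher and 19.5% lower). Here the members' median was 1.35 and that of all genes -0.01. On the normalised values the groups did not overlap for 22 higher and 4 lower members (background 16.9% and 19.8%), and in treatment against model for 8 higher and 3 lower (8.51% and 13.7%). The 5 members called lower against sham were Mmp8, Mmp25, Adamts3, Adamts9 and Adamts18. The plot of fold changes sets the 3 comparisons side by side. The comparisons of treatment with model and with sham share the treatment libraries, so they are not separate evidence.

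**Figure D1:**
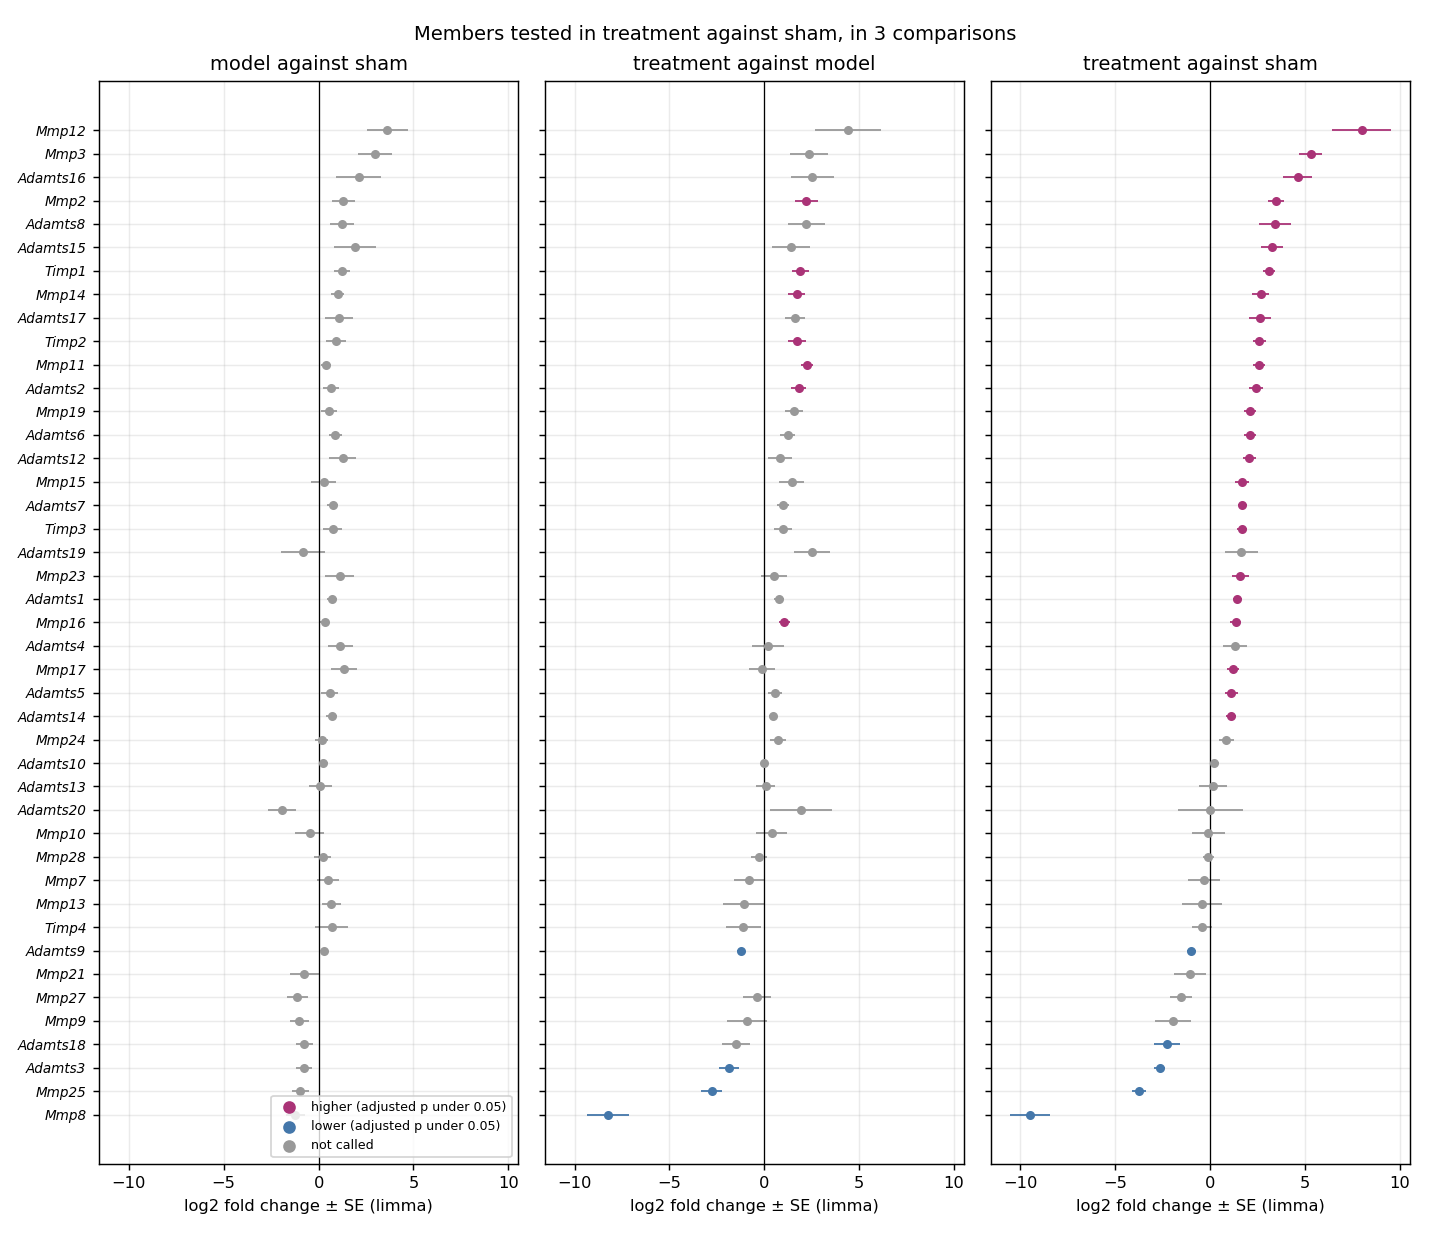
Log2 fold change ± SE (limma, on log2(value + 1), n = 4 per group) of the 43 members tested in treatment against sham, ordered by that comparison, in each of the 3 comparisons. Points in purple were called higher, points in blue lower and points in grey were not called. Model against sham has grey points only, and Mmp12 and Mmp8 lie at the ends in treatment against sham.

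The count in treatment against model rested on single libraries. Without model 4 it was 3 (Mmp8, Mmp11 and Adamts9), without treatment 3 it was 4, without treatment 4 it was 5, and without treatment 1 or model 1 it was 6. Leaving out any 1 of the 8 libraries kept the calls of Mmp8, Mmp11 and Adamts9. Mmp25 lost its call without model 4, and Adamts2 without model 4 or treatment 3. Timp2 lost it without model 4 or any treatment library but treatment 2, and Mmp2 and Timp1 without those libraries or model 1. Mmp14 and Adamts3 lost the call without any library except model 2 and treatment 2, and Mmp16 without any except treatment 2. Their fold changes stayed on the same side: 1.68 to 2.59 for Mmp2, 1.40 to 2.11 for Mmp14, 0.79 to 1.24 for Mmp16, 1.54 to 2.15 for Timp1, 1.26 to 1.98 for Timp2, -3.26 to -2.44 for Mmp25, 1.56 to 2.07 for Adamts2 and -2.36 to -1.56 for Adamts3. Leaving out treatment 2, the muscle-rich library of this comparison, kept all 11. edgeR called 9 members, without Mmp2 and Timp2.

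Of the neutrophil enzymes, Mmp8 and Mmp25 fell in treatment, while Mmp9 did not pass. Mmp8 encodes the collagenase stored in neutrophil granules (ENSRNOG00000009907, chromosome 8, 4724029 to 4733520 in mRatBN7.2). Its level was 946, 965, 1554 and 1001 CPM in sham 1 to 4, 921, 149, 479 and 691 CPM in model 1 to 4 and 1.27, 13.5, 0.407 and 0.355 CPM in treatment 1 to 4. All treatment libraries lay below all others, and treatment 2 was the highest of them. The log2 fold change was -8.24 ± 1.11 against model (limma adjusted p = 0.00286) and -9.49 ± 1.07 against sham (adjusted p = 0.000413). The value against sham was -10.6 without treatment 2 and -8.89 without treatment 4, and those against model were -9.38 and -7.63, all called. Model against sham gave -1.23 ± 0.49 (adjusted p = 0.362), with overlapping groups.

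Mmp25 encodes a membrane-anchored enzyme of leukocytes. Its level was 66.6, 45, 66.3 and 38.1 CPM in sham 1 to 4, 45.3, 9.45, 27 and 43.9 CPM in model 1 to 4 and 1.75, 2.87, 5.69 and 5.09 CPM in treatment 1 to 4. Treatment lay below every other library, and model 2 was the lowest outside it. It fell by 2.76 ± 0.55 against model (limma adjusted p = 0.0143) and by 3.74 ± 0.36 against sham (adjusted p = 7.76e-05) on the log2 scale. The model to sham difference was -0.96 ± 0.45 and was not called.

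Mmp9, the gelatinase of neutrophil granules and of osteoclasts, behaved otherwise. Its level was 869, 586, 813 and 559 CPM in sham 1 to 4, 619, 108, 316 and 628 CPM in model 1 to 4 and 578, 21.7, 104 and 525 CPM in treatment 1 to 4. Treatment 1 lay within the sham and model values, and treatment 4 within the model values but below all sham libraries. In CPM, treatment 2 and 3 lay below both groups, treatment 3 only just below model 2. The difference was -0.91 ± 1.03 against model (limma adjusted p = 0.585) and -1.95 ± 0.97 against sham (adjusted p = 0.155), and without treatment 2 the first of these turned to 0.0197. Within a library, reads of Mmp9 per read of Mmp8 were 0.919, 0.607, 0.523 and 0.558 in sham 1 to 4, 0.671, 0.725, 0.659 and 0.909 in model 1 to 4 and 455, 1.61, 255 and 1478 in treatment 1 to 4. The ratio was therefore close to 1 or below in all sham and model libraries and above 1 in all treatment libraries, and treatment 2 was the nearest to the others. The treatment ratios rested on 21, 221, 7 and 6 reads of Mmp8 in treatment 1 to 4, so those of treatment 1, 3 and 4 are imprecise. On the log2 scale, with 1 added to each value, the ratio differed by 7.33 between treatment and model and by 7.54 between treatment and sham. The 2-sided exact permutation p was 0.0286 for each. No smaller value is possible with 70 assignments, and the adjusted p over 15 ratio tests was 0.0857, so neither passed. At this smallest p, passing would have needed most of the 15 tests to reach it.

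Neutrophil and erythroid markers fell in treatment like Mmp8 and Mmp25, whereas osteoclast markers were not called. Of 10 neutrophil markers 9 fell in treatment against model and 9 against sham, and all 5 erythroid markers fell in both (background 10.5% and 19.5% lower). The defining markers S100a9 and Ngp were at 11.8, 64.9, 4.53 and 1.54 CPM and 2.0, 31.4, 1.74 and 0.178 CPM in treatment 1 to 4, so neither was at 0. In sham and model, S100a9 was at 1202 to 7229 CPM. Treatment 2 held the most neutrophil marker reads of its group (191 CPM) and the most Mmp8. The 7 osteoclast markers, whose list does not contain Mmp9, summed to 1984, 211, 812 and 1679 CPM in treatment 1 to 4, against 801 to 1464 CPM in sham and 410.5 to 1229 CPM in model. Of these 0 were called in any comparison, and the order of the 4 treatment libraries was the same for this sum and for Mmp9. The single osteoclast markers were split, with 3 above 0 and 4 below in treatment against model and against sham (medians -0.13 and -0.22). Against sham 1 of them was lower without overlap, as were 19.8% of all genes. The part of these cell types in the enzymes' levels was not tested.

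**Figure D2:**
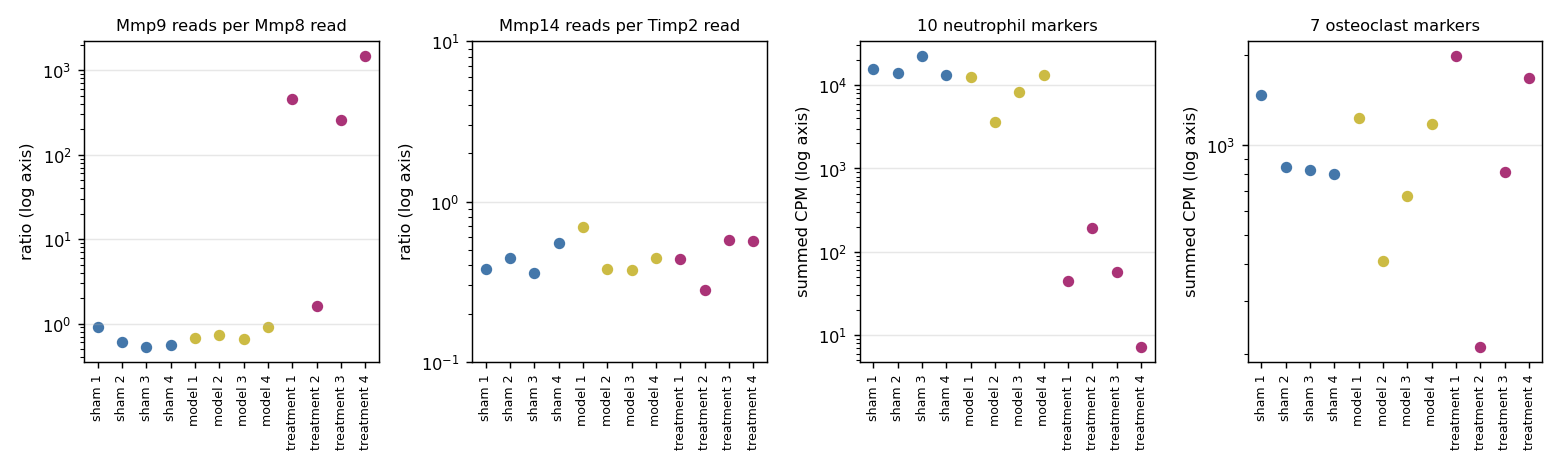
Values per library on log axes, with sham in blue, model in yellow and treatment in purple: reads of Mmp9 per read of Mmp8, reads of Mmp14 per read of Timp2, and the summed CPM of 10 neutrophil and 7 osteoclast markers. The Mmp9 to Mmp8 ratio was 1.61 in treatment 2 and 255 to 1478 in the other treatment libraries, which held 6 to 21 reads of Mmp8. The Mmp14 to Timp2 ratio stayed between 0.279 and 0.694 in all 12 libraries.

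Mmp12, macrophage elastase, had the largest rise among members in treatment against sham (ENSRNOG00000030187, chromosome 8, 4581785 to 4599611). Its level was 0.43, 0.18, 0.752 and 0.41 CPM in sham 1 to 4, 0.838, 6.26, 53.9 and 3.19 CPM in model 1 to 4 and 28.4, 7.14, 464 and 1320.2 CPM in treatment 1 to 4. All sham libraries were under 1 CPM, every model library was above every sham library, and model 3 exceeded 2 of the 4 treatment libraries. Within treatment it ranged from 7.14 CPM in treatment 2 to 1320.2 CPM in treatment 4. The log2 fold change was 7.98 ± 1.53 in treatment against sham (limma adjusted p = 0.00472). It was 3.62 ± 1.08 in model against sham (adjusted p = 0.301) and 4.39 ± 1.74 in treatment against model (adjusted p = 0.124), neither called by limma. DESeq2 on the recovered reads called all 3. In treatment against sham the value was 6.80 without treatment 4, 9.25 without treatment 2 and up to 10.1 with edgeR, and it was called in each case. The sham values rest on 29 reads in all, against 1030 in model and 30892 in treatment.

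General macrophage markers differed less. Summed over the 9 of 10 listed markers that were matched (Marco was not), they reached 1227, 799.7, 981 and 749 CPM in sham 1 to 4, 949, 734, 1626 and 1068 CPM in model 1 to 4 and 964, 772, 2294 and 2340.3 CPM in treatment 1 to 4. The groups overlapped, and treatment 3 and 4 were the highest, as they were for Mmp12. Of these markers 0 were called in treatment against model, and 3 rose and 1 fell in treatment against sham (background 17.3% and 19.5%). The defining markers C1qa and Csf1r were above 0 in all libraries. Their part in the Mmp12 level was not tested.

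Mmp12 and Mmp8 lie in 1 gene cluster, and so do most of the other secreted collagenase and stromelysin genes. The cluster spans 358 kb of chromosome 8 (4497960 to 4855902 in mRatBN7.2) and holds 9 members in the order Mmp13, Mmp12, Mmp1b, Mmp3, Mmp10, Mmp8, Mmp27, Mmp20 and Mmp7. Neighbours did not share a direction in treatment against sham: Mmp12 and Mmp3 rose, Mmp8 fell, and Mmp13, Mmp10, Mmp27 and Mmp7 were not called. The stretches of 250 bases upstream of the start are shown for the 4 genes of this cluster with the most reads, which include 2 that rose and 1 that fell in treatment against sham. They are RefSeq sequences of the GRCr8 build, + strand, 5′ to 3′, from chr8:12782579-12782828 for Mmp13, chr8:12866402-12866651 for Mmp12, chr8:12925031-12925280 for Mmp3 and chr8:13008640-13008889 for Mmp8. Capitals mark matches to the AP-1 motif.
Mmp13: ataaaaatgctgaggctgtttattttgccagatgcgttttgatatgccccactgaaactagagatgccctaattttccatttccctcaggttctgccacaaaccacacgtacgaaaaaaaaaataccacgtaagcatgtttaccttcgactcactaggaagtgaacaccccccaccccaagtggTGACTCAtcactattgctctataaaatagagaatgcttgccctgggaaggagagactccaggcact
Mmp12: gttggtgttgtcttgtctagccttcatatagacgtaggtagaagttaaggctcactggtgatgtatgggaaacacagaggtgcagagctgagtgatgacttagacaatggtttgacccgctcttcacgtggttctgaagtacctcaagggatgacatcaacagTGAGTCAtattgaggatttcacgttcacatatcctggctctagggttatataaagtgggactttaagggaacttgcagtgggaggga
Mmp3: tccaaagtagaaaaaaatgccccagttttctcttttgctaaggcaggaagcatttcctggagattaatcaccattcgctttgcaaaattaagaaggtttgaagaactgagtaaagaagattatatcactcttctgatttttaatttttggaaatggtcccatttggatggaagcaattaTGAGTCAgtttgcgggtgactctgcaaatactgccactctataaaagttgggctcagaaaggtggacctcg
Mmp8: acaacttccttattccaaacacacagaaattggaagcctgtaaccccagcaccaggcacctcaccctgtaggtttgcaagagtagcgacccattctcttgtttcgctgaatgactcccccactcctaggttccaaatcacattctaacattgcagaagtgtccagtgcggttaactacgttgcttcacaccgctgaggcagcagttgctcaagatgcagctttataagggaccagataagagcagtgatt

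AP-1 is the Fos and Jun transcription factor dimer, long known to act on MMP promoters. The motif searched was TGANTCA on both strands, which is its own reverse complement, within these 250 bases. It was found in 6 of the 34 members with a RefSeq sequence, against 6.99% of 27457 genes. All 6 are in the cluster: Mmp13 (first base at -66 from the start), Mmp12 (-87), Mmp3 (-71), Mmp10 (-61), Mmp20 (-96) and Mmp7 (-80). Each of these 6 genes also held TATAAA on the gene's strand, a letter string of TATA boxes that was found in 8 of the 34 members and 8.93% of all genes. Mmp8, Mmp27 and Mmp1b had no AP-1 match in this window. The motif thus stood before genes that rose (Mmp12, Mmp3), 1 gene that was not called (Mmp13) and genes with hardly any reads (Mmp10, Mmp20, Mmp7). A match is a string of letters and does not show binding.

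**Figure D3:**
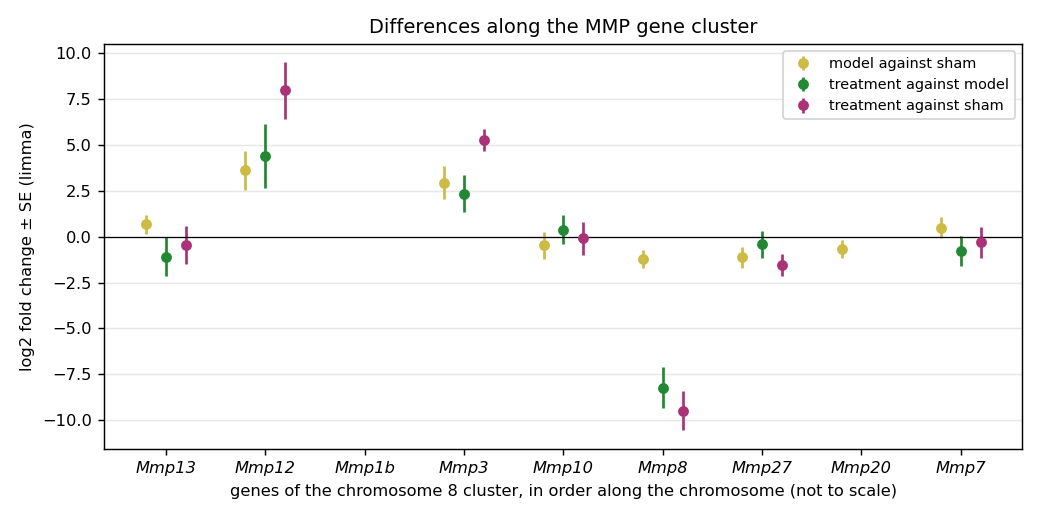
Log2 fold change ± SE (limma, n = 4 per group) of the genes of the chromosome 8 cluster in their order along the chromosome, for each comparison. In treatment against sham, Mmp12 (7.98) and Mmp3 (5.30) lie above 0 and Mmp8 (-9.49) below, and a gene without a point was below the filter on low values.

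Mmp3, stromelysin 1, which cuts proteoglycans and activates other proenzymes, rose in treatment against sham. Its level was 13, 5.15, 8.15 and 3.63 CPM in sham 1 to 4, 18.9, 173, 176 and 12.6 CPM in model 1 to 4 and 202, 96.5, 762 and 219 CPM in treatment 1 to 4. Treatment lay above sham throughout. Model was split, with model 2 and 3 in the range of treatment and model 1 and 4 near sham. The log2 fold change was 5.30 ± 0.61 against sham (limma adjusted p = 0.00031), 2.36 ± 0.98 against model (adjusted p = 0.141) and 2.96 ± 0.90 in model against sham (adjusted p = 0.307), of which limma called only the first and DESeq2 also the last.

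Mmp13, collagenase 3, is the enzyme best known for cutting the type II collagen of cartilage and is made by chondrocytes and osteoblasts. Its level was 209.9, 114, 132 and 162 CPM in sham 1 to 4, 378, 112, 119.6 and 632 CPM in model 1 to 4 and 476, 11.3, 223 and 85.7 CPM in treatment 1 to 4. The groups overlapped in every comparison. Within model the split was the reverse of that of Mmp3, with model 1 and 4 high and model 2 and 3 low. Treatment 2 was the lowest library of all. Differences were 0.68 ± 0.52 in model against sham, -1.08 ± 1.08 in treatment against model and -0.43 ± 1.03 in treatment against sham (limma adjusted p = 0.575, 0.532 and 0.782). The last of these changed sign with edgeR (0.58) and without the 3 muscle-rich libraries (0.49). Osteoblast markers, 5 of 5 matched, summed to 1256, 1157, 530.2 and 1229 CPM in sham 1 to 4, 1623, 249, 846 and 1061 CPM in model 1 to 4 and 2017, 55, 211 and 34.6 CPM in treatment 1 to 4, and 0 of them were called. Like Mmp13, this sum was higher in model 1 and 4 than in model 2 and 3, and highest in treatment 1 among treatment libraries. In treatment 3, however, the sum lay below all sham libraries and Mmp13 above them. Chondrocyte markers summed to 17935, 1524, 5252 and 2814 CPM in treatment 1 to 4, in the same order as Mmp13. Within model they were highest in model 3, unlike Mmp13. The part of either list in the Mmp13 level was not tested.

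The stromal enzymes Mmp2 and Mmp14 were called higher in treatment against both other groups, against model with the exceptions given above. Mmp2, the gelatinase secreted by fibroblasts and other mesenchymal cells, was at 330.3, 133, 187 and 91 CPM in sham 1 to 4, 135, 713, 905 and 301 CPM in model 1 to 4 and 1791, 859.6, 2889 and 1686 CPM in treatment 1 to 4. Treatment 2, the lowest treatment library, was below model 3 in CPM. On the authors' normalised values, which the test used, all treatment libraries lay above all model libraries (2.20 ± 0.60, limma adjusted p = 0.0436) and all sham libraries (3.47 ± 0.43, adjusted p = 0.000347). The model to sham difference was 1.30 ± 0.61 (adjusted p = 0.407).

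Mmp14 encodes the membrane-anchored collagenase that, together with TIMP2, activates the MMP2 proenzyme. Its level was 189.7, 85.6, 98.9 and 81.2 CPM in sham 1 to 4, 119.9, 285, 293 and 199 CPM in model 1 to 4 and 621, 242, 1132 and 827 CPM in treatment 1 to 4. Treatment 2 lay within the model range, and the other treatment libraries lay above all others. The log2 fold change was 1.69 ± 0.46 against model (limma adjusted p = 0.0425), 2.67 ± 0.45 against sham (adjusted p = 0.00184) and 0.998 ± 0.34 in model against sham (adjusted p = 0.335).

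Mmp11, stromelysin 3 of stromal cells, rose against both other groups. Its level was 4.3, 2.99, 3.95 and 4.57 CPM in sham 1 to 4, 4.51, 6.5, 5.49 and 3.99 CPM in model 1 to 4 and 30.8, 15.3, 31.2 and 14.7 CPM in treatment 1 to 4. All treatment libraries lay far above sham and model, which overlapped. It differed by 2.24 ± 0.33 against model (limma adjusted p = 0.00367), 2.60 ± 0.32 against sham (adjusted p = 0.000305) and 0.38 ± 0.26 in model against sham (not called). It shares 1928 bases with Chchd10 on the other strand, which held 2335, 478 and 1836 reads in sham, model and treatment. Whether counting used the strand is not given here, so reads of such partners cannot be told apart.

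Mmp16, a membrane-anchored relative of Mmp14, was at 13.8, 15, 10.1 and 15.9 CPM in sham 1 to 4, 19.5, 13.7, 20.5 and 14.2 CPM in model 1 to 4 and 53.8, 19.8, 30.8 and 28.6 CPM in treatment 1 to 4. Treatment 1 was the highest, and treatment 2 lay within the model values in CPM. It was called higher against model (1.05 ± 0.30, limma adjusted p = 0.0479) and sham (1.35 ± 0.30, adjusted p = 0.00654). Mmp19, an enzyme that cuts basement membrane proteins, was at 28.1, 16, 18.8 and 14.2 CPM in sham 1 to 4, 11, 40.6, 44.2 and 25.9 CPM in model 1 to 4 and 55.1, 41.5, 102 and 112 CPM in treatment 1 to 4. Treatment exceeded sham throughout and treatment 2 lay within the model range in CPM. It was called against sham (2.09 ± 0.32, adjusted p = 0.000944) and not against model (1.58 ± 0.47, adjusted p = 0.0555).

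Mmp23, a short membrane-bound MMP, was at 16.5, 4.55, 5.83 and 3.4 CPM in sham 1 to 4, 3.09, 40.7, 14.2 and 17.9 CPM in model 1 to 4 and 13.1, 12, 21.4 and 25.3 CPM in treatment 1 to 4. The groups overlapped, with sham 1 above 2 treatment libraries and model 2 the highest of all. Its call against sham (1.60 ± 0.45, limma adjusted p = 0.0204) ended without sham 2, sham 3, sham 4, treatment 3 or treatment 4, over a range of 1.33 to 2.04 on leaving out single libraries, and also without the 3 muscle-rich libraries (1.12) and with edgeR on all 12 libraries (1.43). Of the 8 stromal MMPs, 4 rose in treatment against model and 7 in treatment against sham, with medians of 1.64 and 2.34, where 3.6% and 17.3% of all genes rose. The median in model against sham was 0.84, with all 8 above 0 and 0 called.

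The summed level of fibroblast markers was higher in every treatment library than in all others. Of 8 markers 3 rose in treatment against model and 7 against sham (background 3.6% and 17.3%). Their sum was 15402, 8652, 5668 and 7129 CPM in sham 1 to 4, 10960.0, 22013, 21541 and 13207 CPM in model 1 to 4 and 65532, 25459, 55636 and 30213 CPM in treatment 1 to 4. Model 2 and 3, which were high for Mmp2 and Mmp3, were also high for this sum. The defining markers Pdgfra and Dcn were above 0 in every library. Tenocyte markers summed to 141 to 620.0, 159 to 805 and 725 to 2616 CPM in sham, model and treatment, and chondrocyte markers to 1042 to 2043, 1304 to 3291 and 1524 to 17935 CPM. The part of these cells in the enzymes' levels was not tested.

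**Figure D4:**
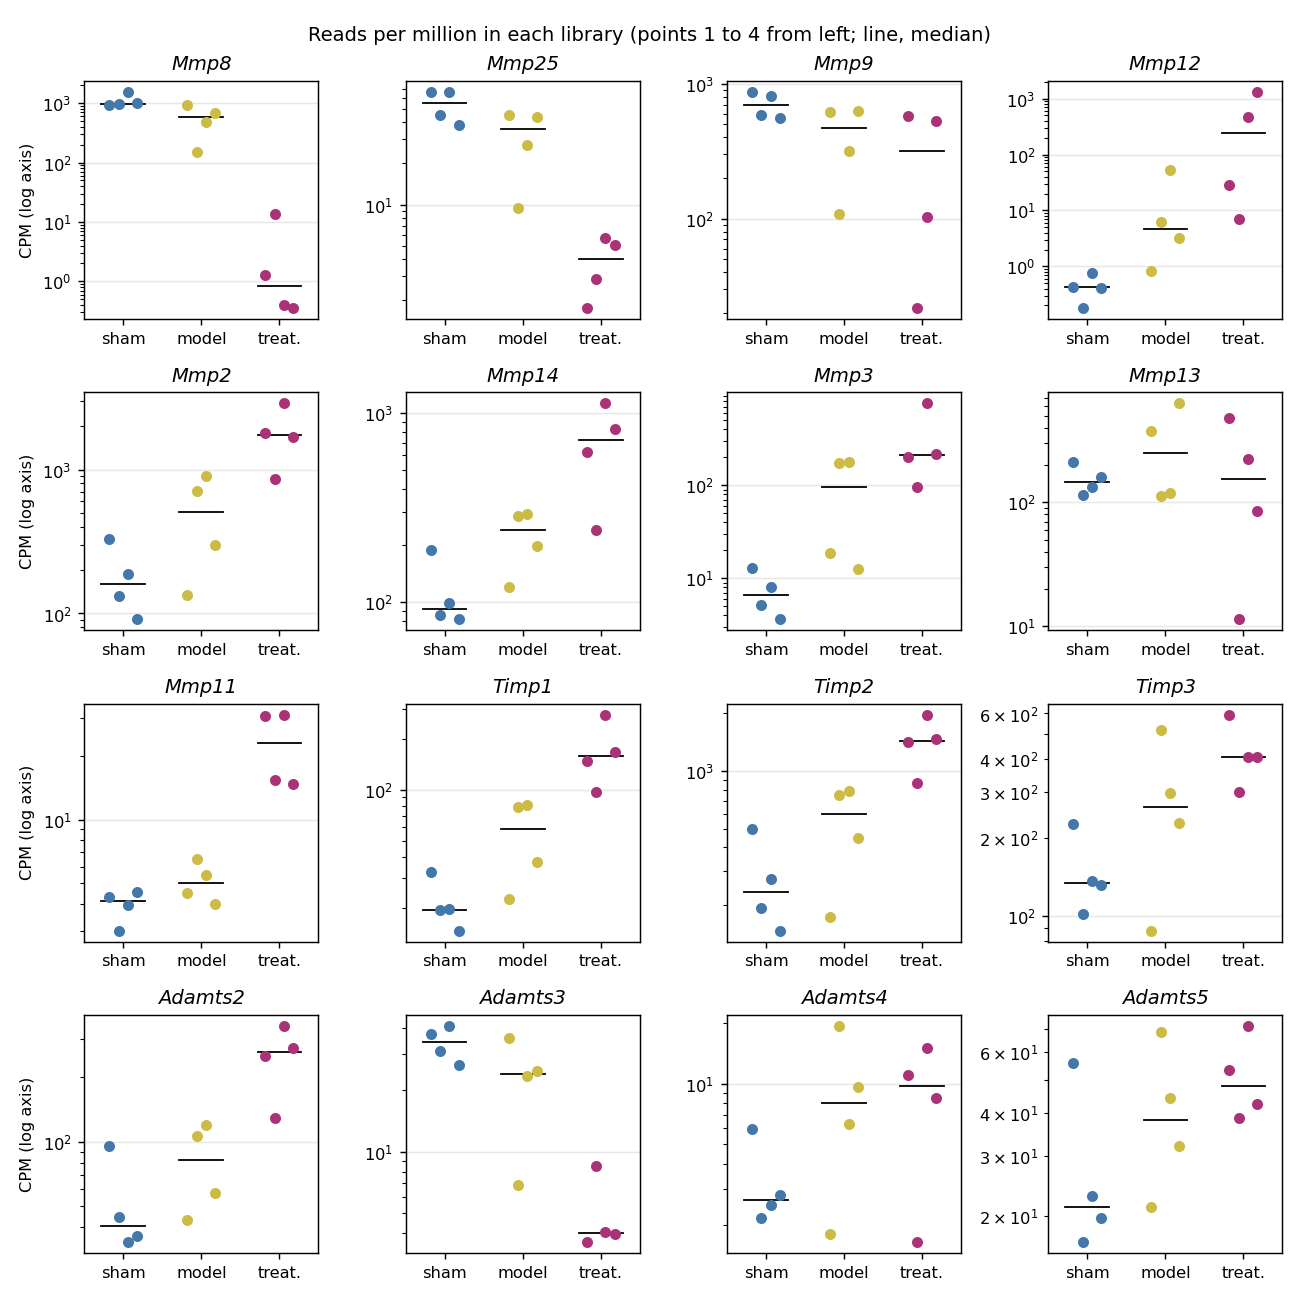
CPM of 16 members in each library on log axes, 1 panel per gene. Points are libraries 1 to 4 of a group from left to right and lines are group medians. Mmp8 and Mmp25 lie lower in treatment than in all other libraries, Mmp11 lies higher, and Mmp9, Mmp13 and Adamts4 overlap between all groups.

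The make-up of the MMP family shifted between libraries. Per kilobase of gene length, Mmp8 held 43.2 to 62.3% of the summed MMP level in sham, 11 to 48.7% in model and 0.00910 to 1.32% in treatment. Mmp2 held 3.46 to 9.72%, 4.58 to 33.9% and 28 to 54.2% in the same order. Mmp9 was second to Mmp8 in all sham libraries, at 21.6 to 26.3%. Mmp8 was the top MMP in all sham libraries and in model 1 and 4, and Mmp2 was the top MMP in model 2 and 3 and in treatment 1 to 3. In treatment 4 it was Mmp12, at 34.3%. The summed level was 1073, 821, 1222 and 831 CPM per kilobase in sham 1 to 4, 928, 664, 959 and 1021 in model 1 to 4 and 1369.7, 501, 2191 and 1904 in treatment 1 to 4. Treatment 2 was the lowest of all and the other treatment libraries were the highest. The family's total thus overlapped between groups while its leading members differed.

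**Figure D5:**
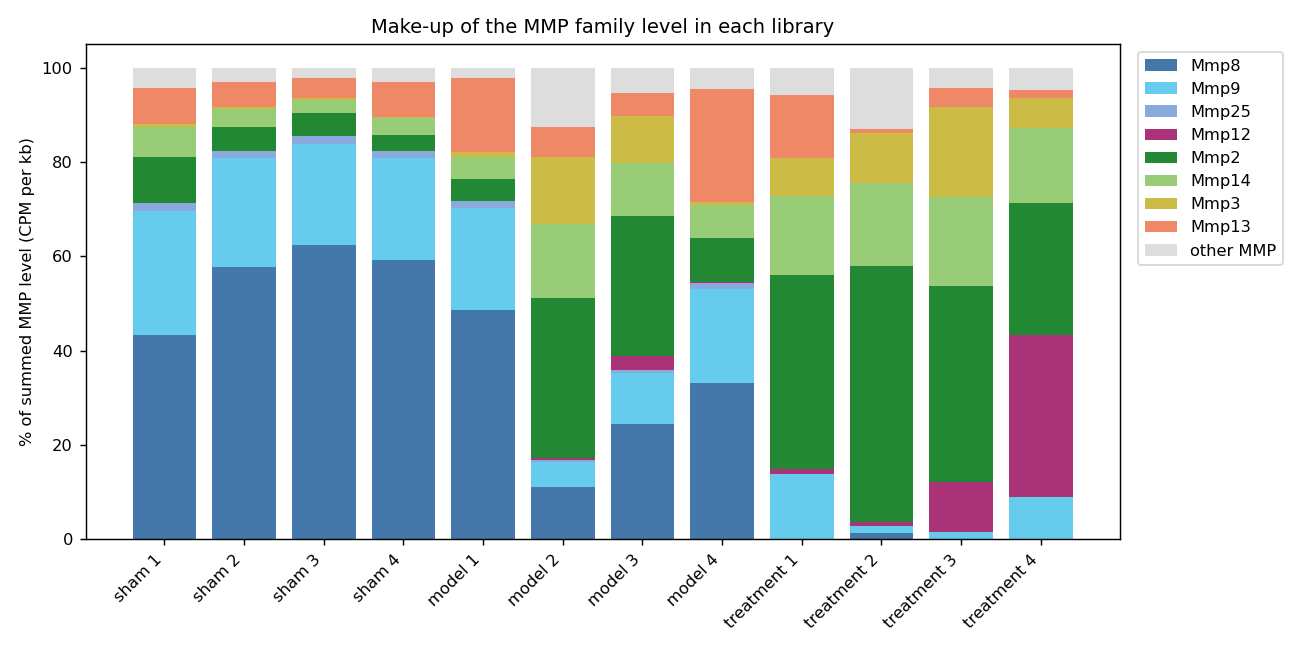
Share of each MMP in the summed MMP level (CPM per kilobase of gene length) for each of the 12 libraries, in percent. Blue shades are the neutrophil enzymes, purple is Mmp12, and green, yellow and orange are stromal enzymes, with Mmp8 at 43.2 to 62.3% in sham and Mmp2 at 27.97 to 54.2% in treatment.

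Of the other 10 MMP genes, 7 were tested in treatment against model and 0 were called, while Mmp15 and Mmp17 rose in treatment against sham among 8 tested. Mmp15, a membrane-anchored enzyme, was at 25.5, 12.3, 9.28 and 11.4 CPM in sham 1 to 4, 4.06, 36, 32.9 and 14.3 CPM in model 1 to 4 and 45, 60.7, 37.8 and 24.1 CPM in treatment 1 to 4. Treatment 4 was slightly below sham 1 in CPM, and the groups did not overlap on the normalised values (1.70 ± 0.37, limma adjusted p = 0.00613). Mmp17, a lipid-anchored enzyme, was at 5.29, 2.7, 3.45 and 3.28 CPM in sham 1 to 4, 2.71, 32.3, 5.43 and 13.9 CPM in model 1 to 4 and 5.86, 11.6, 8.07 and 5.8 CPM in treatment 1 to 4. Treatment lay above sham, and model 2 was the highest of all (1.21 ± 0.32 in treatment against sham, adjusted p = 0.0161). Neither call held without the 3 muscle-rich libraries, at 1.32 and 0.76, and that of Mmp17 also ended with edgeR on all 12 libraries (1.28).

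Mmp24 and Mmp27 had the smallest p of the uncalled MMPs in this class. Mmp24 differed by 0.86 ± 0.38 in treatment against sham (limma adjusted p = 0.109) and Mmp27 by -1.54 ± 0.58 (adjusted p = 0.065). Mmp28 was at 10.5 to 39.3 CPM in all libraries. Mmp7, Mmp10, Mmp20 and Mmp21 stayed under 1 CPM in every library. Mmp20, an enzyme of tooth enamel, had 8 reads in sham, 4 in model and 0 in treatment. With treatment set at a floor of 3 reads over the group, it was 2.71-fold lower than sham per total reads. That value takes the 8 sham reads as exact, so it does not cover their counting error, nor the spread between libraries. Mmp10 had 8, 3 and 8 reads. Mmp1b, listed only in the table of treatment against model, had 1 read in model and 1 in treatment, so no fold is given.

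The ADAMTS family was led by other genes in treatment than in sham. Per kilobase, Adamts10, which acts on fibrillin microfibrils, was the top ADAMTS in all sham libraries and in model 1, 2 and 4, at 27.4 to 39.1% of the family's level in sham. Adamts2 was the top ADAMTS in model 3 and in all treatment libraries, at 20.6 to 38.3% of the level in treatment. Adamts10 itself ranged from 96.2 to 207 CPM over the 12 libraries and differed by 0.22 ± 0.24 in treatment against sham (limma adjusted p = 0.509). The family's summed level was 73.7 to 146 CPM per kilobase in sham, 83.1 to 180.1 in model and 159.7 to 231 in treatment. Sham and treatment did not overlap, and model overlapped with both.

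Procollagen enzymes went in opposite directions. Adamts2, which removes the amino-terminal propeptide of fibrillar procollagens, was at 95.1, 44.8, 34.1 and 36.5 CPM in sham 1 to 4, 43.2, 106, 119.5 and 57.4 CPM in model 1 to 4 and 252, 129, 346 and 273 CPM in treatment 1 to 4. Every treatment library exceeded all others, and treatment 2 was the lowest of them. It rose by 1.81 ± 0.38 against model (limma adjusted p = 0.0178) and by 2.44 ± 0.36 against sham (adjusted p = 0.000907). Adamts3, a relative known for processing the lymphatic growth factor VEGF-C, was at 37.3, 31, 40.9 and 26.3 CPM in sham 1 to 4, 35.8, 6.87, 23.2 and 24.7 CPM in model 1 to 4 and 3.63, 8.48, 4.07 and 3.96 CPM in treatment 1 to 4. Treatment 2 exceeded model 2, and otherwise treatment lay below all other libraries. Its difference was -1.86 ± 0.53 against model (adjusted p = 0.0481) and -2.66 ± 0.30 against sham (adjusted p = 0.000184), both called lower. Adamts14, the remaining gene of this class, was at 15.5, 9.88, 9.09 and 5.97 CPM in sham 1 to 4, 11.2, 19.1, 16.8 and 14.9 CPM in model 1 to 4 and 21.5, 14.8, 21.4 and 17.2 CPM in treatment 1 to 4. Treatment overlapped sham 1 in CPM but not on the normalised values (1.10 ± 0.27, adjusted p = 0.0116, not called without the muscle-rich libraries). In model against sham the class differed by 0.66 ± 0.41, -0.77 ± 0.44 and 0.68 ± 0.29 and 0 were called.

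Of the main aggrecanases of cartilage, the main limma test called Adamts5 in 1 comparison and Adamts4 in none, and both results changed under alternatives. Adamts5, the chief aggrecanase in mice, was at 56, 16.8, 22.9 and 19.7 CPM in sham 1 to 4, 21.3, 68.8, 44.2 and 32.1 CPM in model 1 to 4 and 53.4, 38.7, 71.6 and 42.4 CPM in treatment 1 to 4. The groups overlapped, since sham 1 lay above 3 of the 4 treatment libraries and model 2 near the top. It was called in treatment against sham (1.12 ± 0.36, limma adjusted p = 0.0356), but not with edgeR (1.04), nor without sham 2, sham 3, sham 4, treatment 1 or treatment 3, with a range of 0.92 to 1.48 on leaving out single libraries, nor without the muscle-rich libraries (0.77). Adamts4, an aggrecanase induced by cytokines, was at 5.96, 2.16, 2.51 and 2.81 CPM in sham 1 to 4, 1.8, 19.3, 6.31 and 9.64 CPM in model 1 to 4 and 11, 1.65, 15 and 8.46 CPM in treatment 1 to 4. The groups overlapped, with model 2 the highest and treatment 2 the lowest of all. It differed by 1.30 ± 0.64 in treatment against sham (adjusted p = 0.143) and by 1.14 ± 0.66 in model against sham (adjusted p = 0.469). Against sham it was called with DESeq2 (1.58), with limma-voom quality weights (2.09), without the 3 muscle-rich libraries (1.68) and without treatment 2. Among other genes on the other strand, Adamts4 shares 9883 bases, its whole span, with Ppox and 1261 bases with Fcer1g. Ppox held 3740, 3645 and 1016 reads in sham, model and treatment, and Fcer1g held 14734, 9603 and 9135.

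Relatives that cut versican and aggrecan split. Adamts1 was at 32.7, 19.1, 19.1 and 26.9 CPM in sham 1 to 4, 22.8, 52.5, 42 and 43.1 CPM in model 1 to 4 and 69.2, 61.9, 58.4 and 46.1 CPM in treatment 1 to 4. Treatment lay above all sham libraries and overlapped model (1.44 ± 0.23 in treatment against sham, limma adjusted p = 0.00112). Adamts15 was at 23.1, 2.52, 5.83 and 5.27 CPM in sham 1 to 4, 2.45, 114, 34.8 and 35.4 CPM in model 1 to 4 and 43.4, 37.6, 62 and 105 CPM in treatment 1 to 4. Treatment was above sham throughout, sham 1 was the highest of its group, and model ran from the lowest to the highest library of all (3.27 ± 0.60, adjusted p = 0.00293, and 3.85 without sham 1). Adamts8 was at 1.91, 1.08, 1.5 and 0.586 CPM in sham 1 to 4, 1.03, 8.78, 2.5 and 2.76 CPM in model 1 to 4 and 5.86, 83.4, 5.52 and 7.28 CPM in treatment 1 to 4. Treatment exceeded sham, and treatment 2 stood far above the rest (3.43 ± 0.86, adjusted p = 0.0131, with a range of 2.47 to 3.79 on leaving out single libraries). DESeq2 did not call Adamts8 in this comparison.

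Adamts9, by contrast, fell. Its level was 71.4, 46.3, 42.4 and 38.3 CPM in sham 1 to 4, 50.5, 61.2, 50.8 and 68.4 CPM in model 1 to 4 and 29.3, 15.1, 23.3 and 22.2 CPM in treatment 1 to 4. All treatment libraries lay below all sham and model libraries. The log2 fold change was -1.23 ± 0.20 against model (limma adjusted p = 0.00619) and -0.99 ± 0.24 against sham (adjusted p = 0.00986), and the second call was lost, at -0.99, without the muscle-rich libraries. Adamts20 was not called in any comparison and reached 49.3 CPM in treatment 2 and 8.21 CPM in sham 2, with at most 3.96 CPM elsewhere. Among members called in no comparison it had the smallest p in model against sham, and Mmp27 the next smallest outside the 12 genes set by name (-1.92 ± 0.75 and -1.12 ± 0.56, adjusted p = 0.355 and 0.428).

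Both enzymes known to cut cartilage oligomeric matrix protein (COMP) rose in treatment against sham. Adamts7 was at 23.2, 13.3, 13.6 and 13.1 CPM in sham 1 to 4, 15.3, 38.6, 30.3 and 22.7 CPM in model 1 to 4 and 55.1, 31.4, 56.4 and 41.5 CPM in treatment 1 to 4. Treatment lay above sham, and model 2 above treatment 2. Adamts12 was at 48.3, 13.8, 23.5 and 14.3 CPM in sham 1 to 4, 13.9, 178, 67.1 and 45.5 CPM in model 1 to 4 and 70.7, 67.7, 86.5 and 113 CPM in treatment 1 to 4. Treatment again lay above sham, and model 2 was the highest of all. Their log2 fold changes were 1.69 ± 0.25 and 2.07 ± 0.36 against sham (limma adjusted p = 0.000723 and 0.00183) and 0.99 ± 0.30 and 0.81 ± 0.64 against model (adjusted p = 0.0603 and 0.42, not called).

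Among the other ADAMTS genes, Adamts16, which can cut fibronectin, had the largest rise. Its level was 5.29, 0.898, 1.57 and 0.41 CPM in sham 1 to 4, 0.58, 20.005, 25 and 3.99 CPM in model 1 to 4 and 44.3, 28.6, 65.3 and 11.1 CPM in treatment 1 to 4. All treatment libraries lay above all sham libraries, and model overlapped with both (4.61 ± 0.78 in treatment against sham, limma adjusted p = 0.00189, and 5.23 without sham 1). Adamts6, a relative of Adamts10, was at 11.9, 11.5, 17.2 and 16.7 CPM in sham 1 to 4, 16.5, 42.1, 34.1 and 18.6 CPM in model 1 to 4 and 94.4, 35.3, 58.7 and 44 CPM in treatment 1 to 4. Treatment lay above sham and treatment 2 lay below model 2 in CPM (2.09 ± 0.31, adjusted p = 0.000812). Adamts17, which acts in fibrillin microfibrils, was at 9.41, 3.17, 1.07 and 4.04 CPM in sham 1 to 4, 3.48, 11.9, 16.7 and 3.5 CPM in model 1 to 4 and 18.9, 20.7, 27.6 and 13 CPM in treatment 1 to 4. Treatment lay above sham and overlapped model (2.64 ± 0.57, adjusted p = 0.00605, lost without the muscle-rich libraries at 2.70).

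Adamts18 was called lower in treatment against sham. Its level was 18.2, 9.94, 5.71 and 7.9 CPM in sham 1 to 4, 9.09, 2.64, 6.37 and 6.33 CPM in model 1 to 4 and 7.62, 1.59, 0.813 and 0.888 CPM in treatment 1 to 4. The groups overlapped, because treatment 1 lay within the sham range while the other 3 treatment libraries were below all sham and model libraries. The difference was -2.26 ± 0.69 (limma adjusted p = 0.0299), and the call ended without sham 1, sham 2, sham 4, treatment 2, treatment 3 or treatment 4, over -2.97 to -1.92 on leaving out single libraries, with edgeR (-1.72) and without the 3 muscle-rich libraries (-2.31). Adamts19 was not called in any comparison and stayed under 3 CPM, and it differed by 2.51 ± 0.94 in treatment against model (adjusted p = 0.106). Adamts13, which cuts von Willebrand factor, ranged from 5.68 to 58.9 CPM over the 12 libraries and differed by 0.15 ± 0.75 in treatment against sham (adjusted p = 0.896).

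Of the 4 inhibitors, 2 rose in treatment against model and 3 against sham (background 3.6% and 17.3% higher). Timp1, a soluble inhibitor of most MMPs, was at 32.8, 19.5, 19.6 and 14.6 CPM in sham 1 to 4, 22.4, 79.3, 81 and 37.2 CPM in model 1 to 4 and 148, 97.1, 278 and 167 CPM in treatment 1 to 4. Each treatment library exceeded all sham and model libraries. It rose by 1.90 ± 0.45 against model (limma adjusted p = 0.0278) and by 3.10 ± 0.32 against sham (adjusted p = 0.000117), and the model to sham difference was 1.23 ± 0.43 (adjusted p = 0.337). Timp2, which inhibits MMP2 and also helps MMP14 activate it, was at 499, 193, 275 and 147 CPM in sham 1 to 4, 173, 750.4, 785 and 449 CPM in model 1 to 4 and 1411, 865, 1970.0 and 1462 CPM in treatment 1 to 4. All treatment libraries lay above all others (1.73 ± 0.47 against model, adjusted p = 0.0436, and 2.60 ± 0.36 against sham, adjusted p = 0.000596). Timp2 lies within Cant1 on the same strand in the authors' gene models, and Cant1 held 3084, 3089 and 3068 reads in sham, model and treatment.

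Timp3, the inhibitor that binds to the matrix and blocks ADAMTS4 and ADAMTS5 as well, was at 226, 102, 137 and 131 CPM in sham 1 to 4, 87.9, 517, 297 and 227 CPM in model 1 to 4 and 594, 299, 407 and 408 CPM in treatment 1 to 4. Treatment lay above sham throughout, model 1 was the lowest of all and model 2 lay among the treatment values. It was called against sham (1.69 ± 0.27, limma adjusted p = 0.00119) and not against model (0.98 ± 0.48, adjusted p = 0.201). Timp4 was not called in any comparison and ranged from 2.13 to 61.0 CPM, both extremes within model. Per kilobase, Timp3 was the top TIMP in 11 libraries, at 59.7 to 70.8% of the TIMP level in sham, and Timp1 was the top TIMP in treatment 3, at 45.3%. This order depends on the gene lengths listed, 873 bases for Timp1, 13014 for Timp2 and 1746 for Timp3. In CPM, not scaled to length, Timp2 was above Timp3 in every library. The summed TIMP level was 211, 97.5, 124 and 106 CPM per kilobase in sham 1 to 4, 89.96, 463, 329 and 214 in model 1 to 4 and 621, 353, 704 and 539.7 in treatment 1 to 4. Sham and treatment did not overlap, and model 1 lay below all other libraries.

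Ratios of reads within a library, which do not depend on its scaling, set an enzyme beside an inhibitor. The log2 ratios tested had 1 added to each normalised value, so they depend on scaling where a gene has few reads. Reads of Mmp14 per read of Timp2 were 0.38, 0.443, 0.36 and 0.552 in sham 1 to 4, 0.694, 0.379, 0.374 and 0.444 in model 1 to 4 and 0.44, 0.279, 0.575 and 0.566 in treatment 1 to 4. The groups overlapped, and the log2 ratio differed by -0.03 (exact permutation p = 0.857, adjusted p = 0.857) in treatment against model and by 0.06 (exact permutation p = 0.8286, adjusted p = 0.857) in treatment against sham. Both genes were called higher in treatment, while a difference in their ratio was not detected, which does not show that it was equal. Reads of Mmp3 per read of Timp1 were 0.398, 0.265, 0.417 and 0.248 in sham 1 to 4, 0.842, 2.18, 2.17 and 0.338 in model 1 to 4 and 1.37, 0.994, 2.74 and 1.31 in treatment 1 to 4. All sham libraries lay below all treatment libraries, with a log2 difference of 2.19 (exact permutation p = 0.0286, adjusted p = 0.0857), and model 2 and 3 lay among treatment.

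The ratio of Mmp12 to Mmp9, a macrophage beside a granulocyte and osteoclast enzyme, was under 0.001 in all sham libraries, 0.00135 to 0.171 in model and 0.0491 to 4.48 in treatment. The log2 difference was 4.63 (exact permutation p = 0.0286, adjusted p = 0.0857) in model against sham and 9.93 (exact permutation p = 0.0286, adjusted p = 0.0857) in treatment against sham, with groups apart in both, and 5.30 (exact permutation p = 0.0857, adjusted p = 0.184) in treatment against model, with overlap. Adamts5 to Adamts4 was 7.02 to 9.39 in sham, 3.32 to 11.8 in model and 4.76 to 23.5 in treatment and overlapped throughout. None of the 15 ratio tests passed after adjustment, and 5 of them had the smallest p that the design allows. A ratio could pass only if most of the 15 tests had this smallest p. Not passing therefore does not show that a ratio was alike between groups.

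Genes that act on these proteases were called in part, as follows. Of 10 genes of the plasminogen system, which activates several proMMPs through plasmin, 2 rose in treatment against model, S100a10 (1.53 ± 0.33) and Anxa2 (0.89 ± 0.25), which together hold plasminogen at the cell surface (limma adjusted p = 0.0182 and 0.0466). Over all genes 3.6% rose and 10.5% fell in that comparison. Against sham 5 rose and 1 fell, with 17.3% and 19.5% over all genes. Among them Plat, the tissue activator of plasminogen, rose by 2.39 ± 0.43 (adjusted p = 0.00269). Serpinb2, an inhibitor of plasminogen activators, differed by -5.38 ± 0.96 (adjusted p = 0.00228, called lower). The median of the list was 0.84 against model and 0.82 against sham.

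Of 12 tested regulators of MMPs, 2 rose and 2 fell in treatment against model (background 3.6% and 10.5%). Lcn2, a neutrophil granule protein that binds MMP9, differed by -6.99 ± 0.89 (limma adjusted p = 0.00246) and Spock1, testican 1, by -3.56 ± 0.84 (adjusted p = 0.0264), both called lower. Bsg, an inducer of MMPs, rose by 0.80 ± 0.21 (adjusted p = 0.0375) and Lrp1, the receptor that clears MMPs, ADAMTS proteases and TIMP3, by 1.27 ± 0.35 (adjusted p = 0.0436). Against sham 6 of 13 rose and 2 fell (background 17.3% and 19.5%), with Thbs2, which promotes the uptake of MMP2, at 3.47 ± 0.75 (adjusted p = 0.00732). Of 6 AP-1 subunits matched (Junb was not), Fos rose against model (2.18 ± 0.57, adjusted p = 0.039) and 5 rose against sham (background 3.6% and 17.3%). The 5 included Fos (2.78 ± 0.43) and Jun (1.59 ± 0.30), and the largest rise in the list was 3.32.

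Of 12 matrix substrates 2 rose against model, where 3.6% of all genes did. They were Vcan (1.88 ± 0.47, limma adjusted p = 0.0319), the large proteoglycan cut by ADAMTS1 and its relatives, and Comp (2.12 ± 0.58, adjusted p = 0.0436), and the other 10 were not called. Against sham 8 rose (background 17.3%), with the smallest p for Col3a1 (4.75 ± 0.63), type III collagen, and Fn1 (3.91 ± 0.57), fibronectin (adjusted p = 0.000553 and 0.000796). The list's median was 1.16 against model and 1.90 against sham. Comp is also a chondrocyte marker and Col3a1 a fibroblast marker here, so the counts of these lists are not separate. For model against sham 0 genes of these lists were called, and the plasminogen, regulator, AP-1 and substrate lists had medians of -0.0019, 0.20, 0.62 and 0.59.

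The authors' deposited tables of changed genes, cut at a log2 fold change of at least 1 in size and an adjusted p under 0.05, held 2 members for model against sham, 14 for treatment against model and 27 for treatment against sham. They hold 1.88%, 14.9% and 25.3% of all genes of their tables. For model against sham the members were Mmp12 and Mmp3, both higher. The authors' deposited table gives Mmp12 a log2 fold change of 5.22 (adjusted p = 7.54e-05) there. For Mmp8 in treatment against sham the authors' deposited table gives a log2 fold change of -7.96 with no p, so Mmp8 is not among the 3 lower members of that list. Adamts8 is at 4.54 in that comparison, also with no p, and is not in the list either.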

How the data were processed

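Total RNA of rat joint was extracted with Trizol and, per the labels, VAHTS Universal V5 reagents were used for library preparation. The submitters' processing notes name fastp, DESeq2 and the build mRatBN7.2. The aligner, counter, annotation release and strand setting were not given in the sources used here. The authors deposited 3 full tables of 8 libraries, 1 per comparison. Their expression values are a normalised signal, the read count of a gene divided by a size factor set for each library within a table, as read off the deposited values. All values (100%) were whole multiples of 1 step at a tolerance of 0.001 reads, so whole read counts were recovered. The authors' deposited fold changes, in log2, and their deposited p-value columns serve only where the authors' lists are described. A blanked line in each full table is not used here. Gene names, lengths and coordinates were taken from the authors' tables.

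Each comparison was tested within its own table with limma 3.58.1 in R 4.3.3 (with trend and robust fitting). The input was log2(value + 1) of genes whose mean value reached 1. A fold change is the difference between group means of that quantity, which understates changes of low genes, and adjusted p is Benjamini-Hochberg over all genes tested. Members were in 44, 45 and 44 rows of the 3 tables, of which 44, 42 and 43 passed the filter. The script was tested on simulated data. For ratios of 5 gene pairs within libraries, groups were compared by exact permutation of all 70 assignments, adjusted over the 15 tests. Alternatives were edgeR 4.0.16 and DESeq2 1.42.0 on the recovered reads, other scalings, pseudocounts, filters and library weights, the replicate block, and libraries left out. Replicates differed beyond sampling noise, with a chi-square of 17.4 to 318 per degree of freedom.

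The members, their classes by role, the marker lists and the related lists were chosen with earlier results of these data known. Values in every library are given for 12 members set by name and for those called in any comparison, and others by range and count, with the 2 of smallest p per comparison. Of related lists, genes were named among the 4 with the smallest p per comparison. Some genes that this would name are not reported here. Promoter letters came from a RefSeq table of GRCr8 that held 34 of the 45 members.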

Additional observations from a re-analysis of the deposited data

Results flagged for a closer look

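In 12 of 108 groups of 4 libraries, 1 per gene and group, 1 library stood apart from the other 3 by a gap that took up most of the group's range (Dixon's test at its 95% critical value), which chance gives in about 1 in 20 groups. In sham 1 this held for Adamts5 (56.0 CPM, the others 16.8 to 22.9), Adamts7 (23.2 CPM, the others 13.1 to 13.6), Adamts15 (23.1 CPM, the others 2.52 to 5.83) and Mmp14 (189.7 CPM, the others 81.2 to 98.9). Fibroblast markers were also highest in sham 1 among sham libraries, at 15402 CPM, and their part was not tested.

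In treatment 2 it held for Adamts8 (83.4 CPM, the others 5.52 to 7.28), Adamts20 (49.3 CPM, the others 0.0605 to 3.96), Adamts3 (8.48 CPM, the others 3.63 to 4.07) and Mmp8 (13.5 CPM, the others 0.355 to 1.27). This library held the most skeletal muscle marker reads, 35167 CPM, and the most neutrophil marker reads of its group, 191 CPM, and the part of either was not tested. Sham 2, the sham library with the most muscle marker reads, stood apart for Adamts20 (8.21 CPM, the others 0.878 to 1.78).

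The remaining libraries were model 3 for Mmp12 (53.9 CPM, the others 0.838 to 6.26), sham 3 for Mmp8 (1554 CPM, the others 946 to 1001) and treatment 1 for Adamts18 (7.62 CPM, the others 0.813 to 1.59).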

How the results depend on the processing

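Alternatives moved the counts of members called as follows. In model against sham DESeq2 called 2 in place of 0, and leaving out single libraries gave 0 to 0. In treatment against model, 11 became 7 with values scaled to library totals (Mmp2, Mmp14, Mmp16 and Timp2 were lost), 22 with limma-voom quality weights and 3 to 13 on leaving out single libraries. In treatment against sham, 29 became 23 without the muscle-rich libraries, 21 of them shared. Over all genes, DESeq2 called 599 in model against sham in place of 0. In treatment against model 2870 became 4845 with DESeq2, 5616 with voom weights and 1178 to 4146 on leaving out single libraries, and in treatment against sham 7485 became 4603 without the muscle-rich libraries.

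Signs turned only for differences that were not called. Mmp9 in treatment against model was at 0.0197 without treatment 2, and at -1.53 to 0.0197 on leaving out single libraries. Mmp13 in treatment against sham was at 0.577 with edgeR (also on all 12 libraries), 0.529 with DESeq2, 0.534 with RLE factors, 0.300 with voom weights, 0.486 without the muscle-rich libraries and -1.18 to 0.599 on leaving out single libraries. Adamts4 in treatment against model ran from -0.428 to 0.836. Among log2 ratios in treatment against model, Mmp14 to Timp2 was at 0.195 and Adamts5 to Adamts4 at -0.189 without the muscle-rich libraries. Single libraries left out gave -0.153 to 0.195 and -0.189 to 0.718 for these, and -0.0930 to 0.801 for Mmp3 to Timp1. They gave -0.105 to 0.219 for Mmp14 to Timp2 in model against sham, and -0.0570 to 0.290 for that pair and -0.742 to 0.0115 for Adamts5 to Adamts4 in treatment against sham. The cause of these shifts was not tested.

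Scaling to library totals put the median of all genes at -0.14 in treatment against model and -0.15 in treatment against sham, so differences of that size are not read. Deviations of libraries with the same number had correlations of -0.44 to 0.24, and those with unlike numbers -0.25 to 0.33. The labels do not say that a number marks a shared animal, litter or day, and these correlations cannot decide it. With the replicate block 0, 9 and 29 members were called, 7 of the 9 shared with the 11, without Mmp2, Mmp14, Timp2 and Adamts3. Members with few reads, such as Mmp7, Mmp10 and Mmp21, could not show small differences at this depth.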

Other observations

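Of 9 ADAM proteases, which shed membrane proteins, 8 were tested in treatment against sham. Adam9 (1.40 ± 0.15), Adam15 (1.36 ± 0.27) and Adam17 (0.80 ± 0.18), the sheddase of tumour necrosis factor, rose, and Adam8 (-3.45 ± 0.52), which is found on leukocytes, was called lower (limma adjusted p = 0.000127 to 0.00697 for these 4), where 17.3% of all genes rose and 19.5% fell. In treatment against model 0 of 8 were called, with 5 at an unadjusted p under 0.05. Of 7 ADAMTS-like proteins, which lack the protease domain and bind fibrillin and other matrix proteins, Adamtsl5 rose against model (2.02 ± 0.41, adjusted p = 0.0149), where 3.6% of all genes rose. Against sham Adamtsl5 (2.62 ± 0.39), Adamtsl4 (2.26 ± 0.45), Thsd4 (2.12 ± 0.44) and Adamtsl1 (2.55 ± 0.80) rose (limma adjusted p = 0.000865 to 0.0359). In model against sham 0 genes of either list were called.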
